A study of Mus musculus with 3 samples.

Results

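The tumour suppressor gene Trp53, known targets of it and regulators of apoptosis were followed across single cells of the mouse blastocyst. The 9 genes were taken by name from the 23154 genes of the count tables: Trp53, Mdm2, Cdkn1a, Ccng1, Perp, Bax, Bak1, Bcl2l1 and Mcl1. All 9 were present in the tables, 8 had counts and were tested, and Bak1 was listed at 0 in every barcode. The cells came from embryos of the Klf2-H2Bmcherry line, collected on embryonic day 2.5 and grown in KSOMaa medium to the E3.5 blastocyst, with mCherry-positive embryos chosen. Culture was static and shaking, but the labels do not tell which cells had which, so the 3 libraries, called replicates 1 to 3, were 1 group with no control. Nothing in the labels says that they were separate cultures or animals, so the p-values reflect the spread among these 3 libraries alone, part or all of which may be technical. Barcodes with counts for 2000 or more genes were kept as cells, 83, 64 and 78 of 96 per library.

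The p53 protein is a transcription factor that is held low by the ubiquitin ligase Mdm2, itself a p53 target, so that the pair forms a feedback loop. When p53 accumulates it raises genes that halt the cell cycle, such as Cdkn1a, and genes that promote cell death, such as Bax and Perp. The BCL2 family then sets whether mitochondria are permeabilised: Bax and Bak1 form the pores, while Bcl2l1 and Mcl1 restrain them. p53 itself is controlled mainly through the stability of the protein, which transcript counts do not measure. In the early embryo the pathway is known for removing less fit or damaged cells before and around implantation.

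The promoters of the members are shown for the p53 decamer, the 10-base consensus of which p53 binds a pair. RefSeq promoters of the build GRCm38.p6 (250 bases before to 50 after a gene's start) were matched for 8 of the 9 members, 11 promoters in all. Perp had no entry. The decamer, which reads the same way on both strands, was found in 5 of the 11 promoters, against 8.36% of 32851 promoters of the same length. The matches lay before Trp53 itself, its regulator Mdm2 and the targets Cdkn1a, Ccng1 and Bax, and none was in the Bak1, Bcl2l1 or Mcl1 windows. Each line gives 40 bases in the gene's direction, 5′ to 3′, with the decamer in capitals. The first base of the decamer lay 75 bases before the start of Trp53 and 186 before that of Mdm2. For Cdkn1a, whose upstream start held both of its matches, the distances were 73 and 51 bases, and for Ccng1 and Bax they were 185 and 201. A match describes the letters only, and the members include genes known as p53 targets.
Trp53, chr11:69580269-69580308, + strand: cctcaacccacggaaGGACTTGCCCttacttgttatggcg
Mdm2, chr10:117710920-117710959, - strand: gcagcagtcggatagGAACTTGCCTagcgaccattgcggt
Cdkn1a, chr17:29090891-29090930, + strand: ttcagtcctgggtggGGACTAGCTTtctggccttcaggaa
Cdkn1a, chr17:29090913-29090952, + strand: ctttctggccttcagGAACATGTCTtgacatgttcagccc
Ccng1, chr11:40755447-40755486, - strand: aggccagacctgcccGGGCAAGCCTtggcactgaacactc
Bax, chr7:45467075-45467114, - strand: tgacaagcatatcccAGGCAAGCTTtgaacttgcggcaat

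Cells were ordered within each library by the summed CPM (counts scaled to a common library total) of Krt8 and Krt18, keratins of the outer epithelium, the trophectoderm. The highest and the lowest 27, 21 and 26 cells of replicates 1, 2 and 3 are called keratin-high and keratin-low, and the rest keratin-middle. These are ranges of a continuous measure, not cell types, and 23, 25 and 24 cells lay within 0.5 log2 units of a boundary. Other trophectoderm markers summed to 1471, 2285 and 4017 CPM in keratin-high and to 767, 262 and 211 CPM in keratin-low cells. The 15 markers of inner cell mass and epiblast summed to 819, 433 and 450 CPM in keratin-high and to 1230, 1814 and 1681 CPM in keratin-low cells, with Sox2 listed at 0 throughout. Markers of primitive endoderm were also higher in keratin-low cells, at 484, 879 and 693 CPM against 242, 282 and 200 CPM.

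One set of cells stood apart in its ribosomal protein and oocyte marker counts. Barcodes 33 to 64 of replicate 1 gave 29 cells, and 22 of them fell among the 27 keratin-low cells of that library. Their median ribosomal protein sum was 26072 CPM, against 216571 CPM in the keratin-low cells drawn from the other 54 cells of replicate 1. Their median sum of oocyte and polar body markers was 88.4 CPM, against 18.1 CPM in the same comparison cells. Trp53 stood at 26.7 CPM in the summed counts of the 29 cells and at 90.6 CPM in the other 54. Leaving the 29 out thus bears directly on the Trp53 comparison itself, and its p-value does not include that choice. Median totals were alike, 295639 and 285719 counts. The comparisons of levels between keratin groups and the correlations of CPM are therefore given for all cells and again without these 29, an alternative chosen after seeing the data, with the keratin groups of replicate 1 redrawn at 18 cells each. Only 1 of the 29 had been keratin-high. Redrawing raised the upper bound of keratin-low from 147 to 319 CPM of keratins and the lower bound of keratin-high from 1285 to 2274 CPM. Cells outside the 29 thus changed group too. Without the 29 the keratin-low cells of replicate 1 had 2510 CPM of inner cell mass and epiblast markers and 252 CPM of trophectoderm markers. The keratin groups were also uneven over the barcodes of replicate 3. Its barcodes 65 to 96 held 12 keratin-low, 14 keratin-middle and 0 keratin-high cells, so its groups differ in barcodes as well as in keratin.

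Over all cells no member passed the threshold between keratin-high and keratin-low cells, and Perp was the one member whose libraries did not overlap. Without the 29 cells, Trp53 was 4.62-fold lower and Perp 2.96-fold higher in keratin-high cells, and both passed. The other 6 tested members passed in neither. By the edgeR quasi-likelihood test, at a threshold of 0.05 after Benjamini-Hochberg adjustment, 0 of 8 members passed over all cells, where 0.156% of 12154 genes did, 0.14% as higher and 0.0165% as lower in keratin-high cells. By unadjusted p below 0.05 the count was 1 member, Perp, against 10.3% of genes, and DESeq2 called 1 member, also Perp, and 883 of the 12154 genes. Without the 29 cells 2 of 8 members passed, 1 lower and 1 higher in keratin-high cells, where 5.5% of 11796 genes did, 3.31% as higher and 2.2% as lower. By unadjusted p below 0.05 the count was then 6 of 8 members (Trp53, Mdm2, Cdkn1a, Ccng1, Perp and Bcl2l1), against 19.4% of genes, and DESeq2 called 4 members and 1587 genes.

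**Figure D1:**
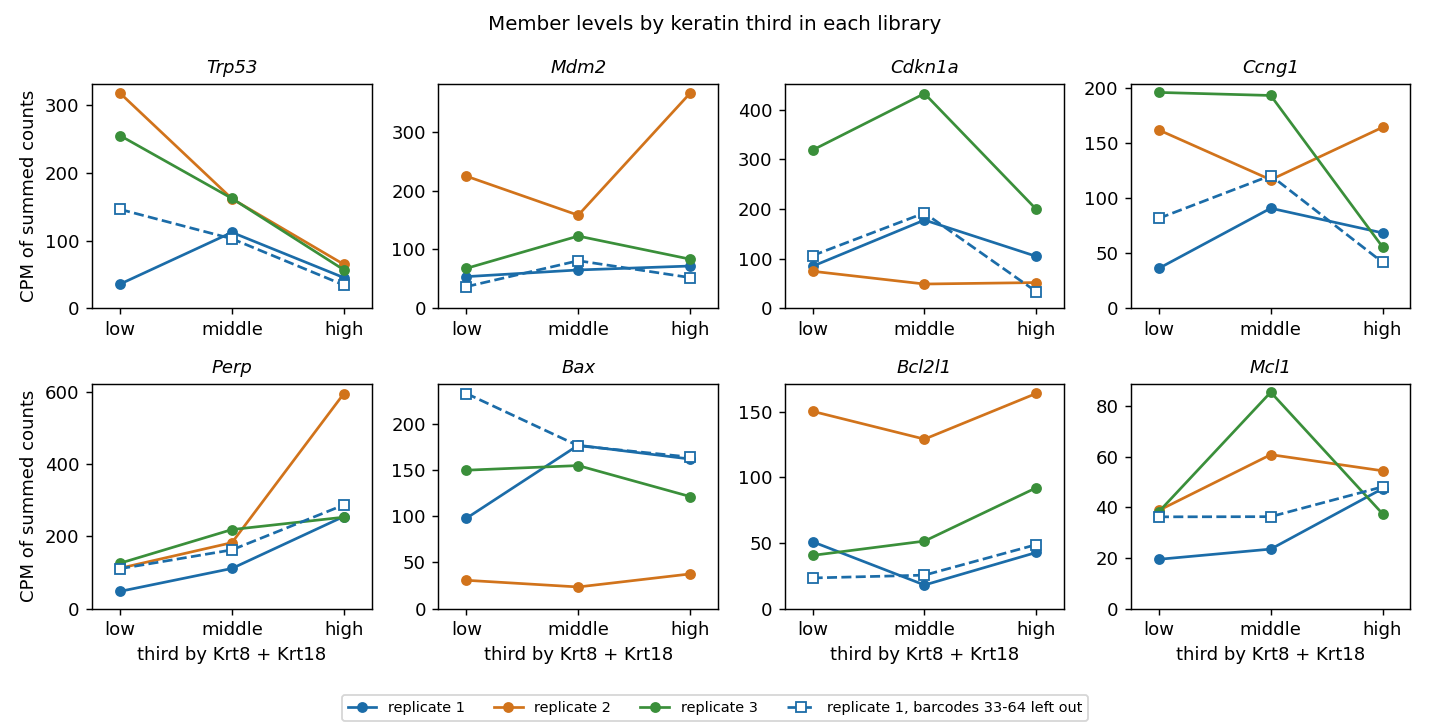
Level of the 8 members with counts (CPM of summed counts, each panel with its own axis from 0) in keratin-low, -middle and -high cells, 1 line per library. The dashed line is replicate 1 without barcodes 33 to 64, in which Trp53 was 146 CPM in keratin-low cells in place of 35.9 CPM.

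Trp53 (chr11:69580359-69591873, + strand, GRCm38, GENCODE M21), which encodes p53, stood at 35.9, 317 and 255 CPM in the keratin-low cells of replicates 1, 2 and 3 and at 45.4, 64.9 and 56.9 CPM in keratin-high cells. Keratin-middle cells had 112, 162 and 162 CPM. In these summed counts keratin-low cells of replicates 2 and 3 were far above all keratin-high values. Those of replicate 1 were below them, so the groups overlapped. Taken per cell, replicate 1 had a mean of 49.0 CPM in keratin-low and 36.7 CPM in keratin-high cells. Its medians were 26.6 and 21.9 CPM. Over all cells Trp53 had a log2 fold change of -1.48 ± 0.70 (SE, n = 3 libraries) and an adjusted p of 0.512 by edgeR's quasi-likelihood test (Benjamini-Hochberg). Once the 29 cells were left out, replicate 1 had 146 CPM in keratin-low, 103 in keratin-middle and 34.5 in keratin-high cells. Trp53 then declined from keratin-low through keratin-middle to keratin-high cells in all 3 libraries, and the groups did not overlap, as for 11.9% of all genes. The level was 239 ± 86.7 CPM in keratin-low and 52.1 ± 15.8 CPM in keratin-high cells (mean ± SD, n = 3). Trp53 fell by 2.21 ± 0.21 (SE) on the log2 scale, with an adjusted p of 0.000775 in the same edgeR test. Without replicate 1 as a whole Trp53 fell by 2.22 (adjusted p = 0.00480, edgeR), and without replicate 2 or replicate 3 and all cells otherwise kept it did not pass. With the 29 cells left out, the call was kept without replicate 2 or replicate 3 and lost without the library as a block (adjusted p = 0.191, edgeR).

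In sets of 32 consecutive barcodes with at least 3 cells of each kind, Trp53 was lower in keratin-high cells in 6 of 6 sets, with log2 ratios from -2.64 to -1.24. Barcodes 33 to 64 of replicate 1 are not among these sets, since they held 1 keratin-high cell, and the 1 set of replicate 1 had 3 keratin-low cells. After thinning every cell to 20000 counts, a Trp53 count was seen in 10 of 26, 19 of 20 and 20 of 25 keratin-low cells and in 8 of 26, 13 of 20 and 12 of 25 keratin-high cells. With the 29 cells left out, replicate 1 gave 17 of 18 keratin-low cells (94.4%, exact binomial 95% interval 72.7% to 99.9%) and 3 of 17 keratin-high cells (17.6%, 3.80% to 43.4%). These intervals cover counting error only. The annotation also holds a processed pseudogene, Trp53-ps, which had no row in the count tables, and how reads shared by the 2 were counted is not given in the labels.

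**Figure D2:**
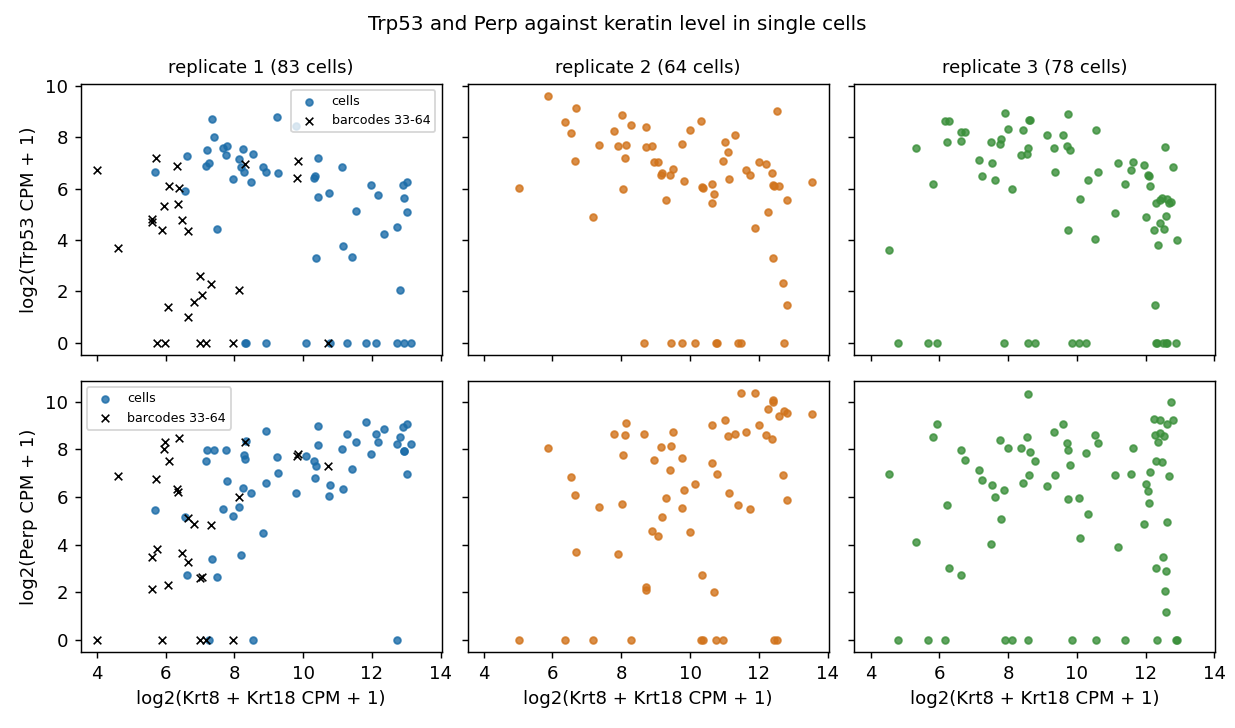
Trp53 (top) and Perp (bottom) in each cell, as log2(CPM + 1), against the keratin level of the cell, as log2 of summed Krt8 and Krt18 CPM + 1, for 83, 64 and 78 cells. Crosses mark barcodes 33 to 64 of replicate 1, 22 of which lie among the 27 keratin-low cells of that library.

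Mdm2, the ubiquitin ligase that targets p53 and is induced by it, had 53.9, 224 and 67.9 CPM in keratin-low and 71.9, 365 and 83.6 CPM in keratin-high cells of replicates 1 to 3. In these summed counts Mdm2 was higher in keratin-high cells within each library, by less than the spread among libraries. Replicate 2 was the highest in both groups. As a mean over cells, Mdm2 had 104, 220 and 68.3 CPM in keratin-low and 77.8, 310 and 66.0 CPM in keratin-high cells. That mean was thus lower in keratin-high cells in replicates 1 and 3. Without the 29 cells the means of replicate 1 were 37.2 CPM in keratin-low and 53.3 CPM in keratin-high cells. The log2 fold change was 0.40 ± 0.53 (SE) over all cells and 0.47 ± 0.20 without the 29 cells, with adjusted p of 0.836 and 0.251 by edgeR's quasi-likelihood test (Benjamini-Hochberg). Within sets of 32 barcodes Mdm2 was higher in keratin-high cells in 6 of 6, with log2 ratios from 0.40 to 1.38 in the 5 sets of replicates 2 and 3. The ratio of 4.13 in the set of replicate 1 rests on 3 keratin-low cells with 8.14 CPM and on 1 keratin-high cell, barcode 81, at 948 CPM. No other keratin-high cell of replicate 1 had more than 159 CPM. Barcode 81 also entered the 71.9 CPM of that library, and the sum without it was not computed.

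Perp (chr10:18845020-18857073, + strand, GRCm38, GENCODE M21) encodes a membrane protein that is a p53 target in cell death and also a part of desmosomes, the junctions to which keratin filaments attach. Its levels were 47.6, 112 and 126 CPM in keratin-low, 111, 182 and 218 CPM in keratin-middle and 255, 594 and 253 CPM in keratin-high cells. Every library was lowest in keratin-low and highest in keratin-high cells, and no keratin-low value reached a keratin-high one, as for 12.2% of all genes. Over all cells the log2 fold change of Perp was 1.88 ± 0.56 (SE) with an adjusted p of 0.256 by edgeR's quasi-likelihood test (Benjamini-Hochberg), and DESeq2 gave an adjusted p of 0.0273. The levels of replicate 1 without the 29 cells were 110, 162 and 287 CPM from keratin-low to keratin-high, and the log2 fold change was 1.57 ± 0.25 with an adjusted p of 0.00957 by edgeR. Perp was higher in keratin-high cells in 6 of 6 sets of 32 barcodes, with log2 ratios from 0.41 to 2.97. After thinning, a Perp count was seen in 10 of 26, 9 of 20 and 15 of 25 keratin-low cells and in 24 of 26, 15 of 20 and 14 of 25 keratin-high cells. In replicate 1 without the 29 cells it was seen in 10 of 18 and 16 of 17. The share was thus higher in keratin-high cells in replicates 1 and 2 and not in replicate 3, where the difference in level was also the smallest. Without replicate 1 Perp had an adjusted p of 0.0356, and without replicate 2 or 3 it was 0.827 or 0.813 (edgeR, all other cells kept). Trp53 and Perp thus differed in opposite directions between the same groups of cells when the 29 cells were left out.

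Cdkn1a, the cyclin-dependent kinase inhibitor p21, had 84.9, 74.7 and 319 CPM in keratin-low and 105, 51.9 and 199 CPM in keratin-high cells. Its keratin-middle cells, at 178, 49.0 and 432 CPM, were the highest in replicates 1 and 3, so the level did not follow the keratin order. Without the 29 cells replicate 1 had 106 CPM in keratin-low and 33.6 CPM in keratin-high cells. Barcode 81, with 1874 CPM of Cdkn1a and 1386 CPM of keratins, is not one of the 29 but left the keratin-high group when it was redrawn. The summed level of Cdkn1a was then lower in keratin-high cells in 3 of 3 libraries. Within sets of 32 barcodes its summed level was higher in keratin-high cells in 4 of 6 and lower in 2, and single cells weighed on these sums. In the set of replicate 1, barcode 81 had 1874 CPM and no other keratin-high cell more than 240 CPM. In barcodes 1 to 32 of replicate 2, barcode 21 had 644 CPM and no other keratin-high cell more than 117 CPM. The directions without these cells were not computed. In replicate 3 keratin-high cells had 59.6 against 31.5 CPM in barcodes 1 to 32. In barcodes 33 to 64 they had 439 against 251 CPM, with barcodes 59, 35 and 61 the highest of them at 1437, 1040 and 642 CPM. Barcodes 65 to 96 of replicate 3, which entered its sums, held 12 keratin-low and 0 keratin-high cells. The log2 fold change was -0.37 ± 0.54 (SE) over all cells and -0.97 ± 0.27 without the 29 cells, with adjusted p of 0.851 and 0.0794 by edgeR's quasi-likelihood test (Benjamini-Hochberg). DESeq2 without the 29 cells gave an adjusted p of 0.00672.

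Ccng1, which encodes cyclin G1 and is a long-known p53 target, had 36.3, 162 and 196 CPM in keratin-low and 68.5, 164 and 55.7 CPM in keratin-high cells. In these sums replicate 1 was higher, replicate 2 about level and replicate 3 lower in keratin-high cells, and the groups overlapped. Within sets of 32 barcodes Ccng1 was higher in keratin-high cells in 3 of 6 and lower in 3. The set of replicate 1, at 168 against 151 CPM, held barcode 81 at 656 CPM, with no other keratin-high cell above 291 CPM. Its direction without that cell was not computed. In replicate 3 keratin-high cells had 39.0 against 39.1 CPM in barcodes 1 to 32. In barcodes 33 to 64 they had 84.3 against 54.7 CPM, and barcodes 65 to 96 held 12 keratin-low and 0 keratin-high cells. In replicate 1 without the 29 cells Ccng1 turned to 81.7 CPM in keratin-low against 41.8 CPM in keratin-high cells. The redrawn keratin-high group no longer held barcode 81. The log2 fold change was -0.35 ± 0.67 (SE) over all cells and -0.95 ± 0.33 without the 29 cells, with adjusted p of 0.888 and 0.148 by edgeR's quasi-likelihood test (Benjamini-Hochberg), and 0.0192 by DESeq2 without the 29 cells.

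Bax, the p53 target that forms pores in the mitochondrial outer membrane, had 97.7, 30.6 and 150 CPM in keratin-low and 162, 37.5 and 121 CPM in keratin-high cells. Replicate 2 was the lowest in both groups, below the other 2 libraries by more than the groups differed. The log2 fold change was 0.17 ± 0.55 (SE) over all cells and -0.21 ± 0.22 without the 29 cells, with adjusted p of 0.937 and 0.681 by edgeR's quasi-likelihood test (Benjamini-Hochberg), so its sign turned with those cells. In the GENCODE M21 annotation 12.2% of Bax exon bases and 7.68% of Cdkn1a exon bases are shared with another gene, and 25.5% of those of Bak1 with Ggnbp1 on the other strand, though none of the last 500 bases, where 3′-end reads fall. Bak1, the partner of Bax, had no count in any of the 288 barcodes. A count of 3 would correspond to 0.0981, 0.109 and 0.0551 CPM in the 3 libraries, and the reason for the zeros was not tested.

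Of the inhibitors of the pore formers, Bcl2l1, which encodes BCL-XL, had 50.9, 150 and 40.6 CPM in keratin-low and 42.8, 164 and 92.2 CPM in keratin-high cells. Barcode 96 of replicate 2, a keratin-low cell, had 765 CPM. Taken per cell, the medians were 7.60, 16.9 and 25.1 CPM in keratin-low and 35.1, 126 and 73.8 CPM in keratin-high cells, higher in each library. The means were 38.6, 88.7 and 81.0 against 57.1, 162 and 77.6 CPM, so replicate 3 went the other way. The summed level of Bcl2l1 was higher, with the 29 cells left out, in keratin-high cells in 3 of 3 libraries, at 48.8 against 23.3 CPM in replicate 1, though the groups overlapped. Its log2 fold change was 0.27 ± 0.61 (SE) over all cells and 0.76 ± 0.31 without the 29 cells, with adjusted p of 0.903 and 0.223 by edgeR's quasi-likelihood test (Benjamini-Hochberg). Mcl1, a short-lived inhibitor of the same family, had 19.5, 38.8 and 38.3 CPM in keratin-low and 47.4, 54.4 and 37.5 CPM in keratin-high cells. In these sums Mcl1 was higher in keratin-high cells in replicates 1 and 2 and level in replicate 3. Taken per cell, its medians were 15.9, 15.7 and 12.9 CPM in keratin-low and 30.7, 34.2 and 31.1 CPM in keratin-high cells, higher in each library. The mean per cell of replicate 3 was 30.8 CPM in keratin-low and 60.3 CPM in keratin-high cells. The log2 fold change of Mcl1 was 0.51 ± 0.61 over all cells and 0.26 ± 0.30 without the 29 cells, with adjusted p of 0.820 and 0.706 in the same edgeR test.

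**Figure D3:**
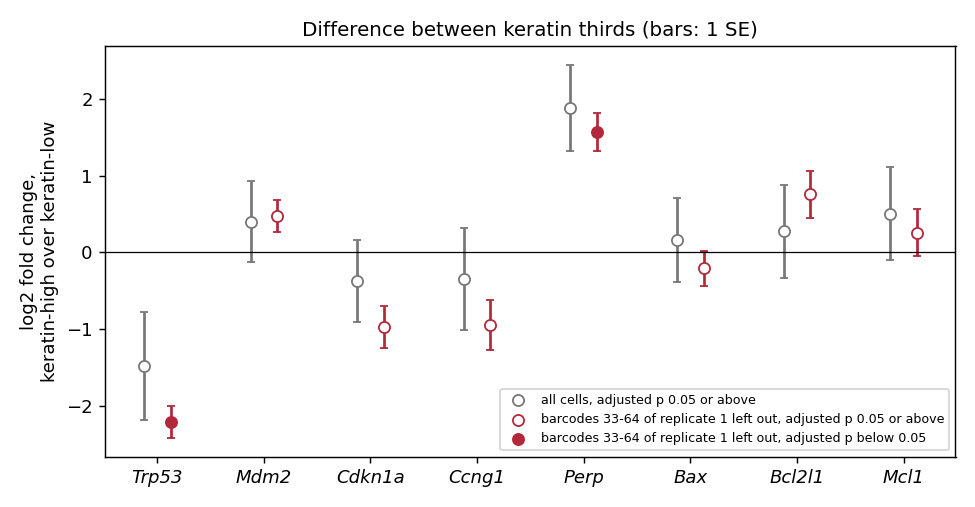
Log2 fold change of the 8 tested members, keratin-high over keratin-low cells (n = 3 libraries, bars 1 SE), for all cells and without barcodes 33 to 64 of replicate 1. Trp53 at -2.21 and Perp at 1.57, both without those barcodes, are the filled points, with adjusted p below 0.05.

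The wider pathway was described by 4 lists: p53 targets, p53 regulators with DNA damage kinases, the BCL2 family, and caspases with the apoptosome and its inhibitors. Over all cells 0 of the 106 tested genes on these lists passed by edgeR's quasi-likelihood test (Benjamini-Hochberg). By unadjusted p below 0.05, 4 were higher and 11 lower, beside 576 higher and 670 lower of all 12154 genes. DESeq2 called 10 of the list genes, beside 883 of all genes. The median log2 fold changes of the lists, in the order above, were -0.35, -0.43, 0.09 and -0.29, beside -0.01 over all genes. The most abundant target, Rps27l, had a log2 fold change of 0.36 ± 0.52 (SE) and the chaperone and p53 regulator Npm1 -0.36 ± 0.54. Without the 29 cells 2 of 108 genes were higher, 8 were lower and 98 did not pass, beside 390 higher and 259 lower of 11796 genes. DESeq2 then called 23 of the list genes, beside 1587 of all genes. By unadjusted p below 0.05, 10 were higher and 24 lower, beside 1181 higher and 1107 lower of all genes (19.4% in all).

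Among p53 targets 1 of 37 was higher (Perp), 2 were lower and 34 did not pass by edgeR without the 29 cells. These counts were near the shares of all 11796 genes, 3.31% higher and 2.2% lower. By unadjusted p below 0.05, 3 targets were higher and 8 lower, against 19.4% of all genes in either direction. The median log2 fold change of the list was -0.49. Dram1, a lysosomal protein of autophagy, had 7.99, 94.1 and 37.3 CPM in keratin-low and 1.83, 1.5 and 2.01 CPM in keratin-high cells. Its keratin-high values were uniformly low and its keratin-low values spread widely. Dram1 fell by 4.20 ± 0.79 (SE) on the log2 scale, with an adjusted p of 0.0201 by edgeR's quasi-likelihood test (Benjamini-Hochberg). Tigar, a phosphatase that diverts sugar phosphates from glycolysis, had 253, 293 and 312 CPM in keratin-low and 162, 139 and 186 CPM in keratin-high cells and fell by 0.85 ± 0.18 (adjusted p = 0.0357, edgeR).

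Of 31 p53 regulators and DNA damage kinases, 5 were lower, none was higher and 26 did not pass by edgeR without the 29 cells. Of all 11796 genes 2.2% were lower and 3.31% higher at that threshold. By unadjusted p below 0.05, 3 of the list were higher and 12 lower, against 19.4% of all genes in either direction. The list's median log2 fold change was -0.55. Trp53 itself is one of the 5. The checkpoint kinase Chek2 had 65.5, 139 and 95 CPM in keratin-low and 20.3, 63.2 and 40.4 CPM in keratin-high cells, and fell by 1.37 ± 0.27 (SE, adjusted p = 0.0235, edgeR). Mdm4, the partner of Mdm2 that masks the activation domain of p53, had 61.8, 226 and 139 CPM in keratin-low and 27.6, 93.1 and 82.3 CPM in keratin-high cells, and fell by 1.09 ± 0.25 (adjusted p = 0.0412, edgeR). Each library of Chek2 and Mdm4 was lower in keratin-high cells, while the 2 groups overlapped across libraries for Mdm4. Usp7, a deubiquitinase that acts on p53 and Mdm2, fell by 0.96 ± 0.22 (adjusted p = 0.0445, edgeR), from 134, 247 and 155 to 76.6, 106 and 92.0 CPM. Npm1 fell by 0.68 ± 0.11 (adjusted p = 0.00971, edgeR).

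In the BCL2 family 1 of 19 tested genes was higher, none was lower by edgeR's adjusted p and 18 did not pass without the 29 cells. Of all 11796 genes 3.31% were higher and 2.2% lower at that threshold. By unadjusted p below 0.05 it was 2 higher and 2 lower of 19, near the 19.4% of all genes. The higher one was Bnip3, a hypoxia-responsive mitophagy receptor of the BH3-only group, which had 61.2, 166 and 167 CPM in keratin-low and 190, 413 and 436 CPM in keratin-high cells. Its log2 fold change was 1.41 ± 0.17 (SE), with an adjusted p of 0.00285 by edgeR's quasi-likelihood test (Benjamini-Hochberg). The 28 tested caspases, apoptosome genes and inhibitors had a median log2 fold change of -0.08. The dissociation-related gene Hspa1a also moved with the groups, higher by 1.82 ± 0.29 (adjusted p = 0.00971, edgeR), and immediate early and dissociation genes summed to 331, 606 and 92.6 CPM in keratin-high against 197, 164 and 93.1 CPM in keratin-low cells. Over all cells replicate 1 had 299 CPM of them in keratin-high and 136 CPM in keratin-low cells. G2 and M phase genes had a median log2 fold change of -0.04, with none of 18 passing by edgeR, beside 5.5% of all genes. At unadjusted p below 0.05 it was 3 of 18, near the 19.4% of all genes. The part of any of these in the results was not tested.

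Over all cells the genes named from the lists kept their direction and none passed by edgeR, with log2 fold changes of -3.49 for Dram1, -0.51 for Tigar, -1.18 for Chek2, -0.88 for Mdm4, -0.75 for Usp7, -0.36 for Npm1 and 1.48 for Bnip3.

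**Figure D4:**
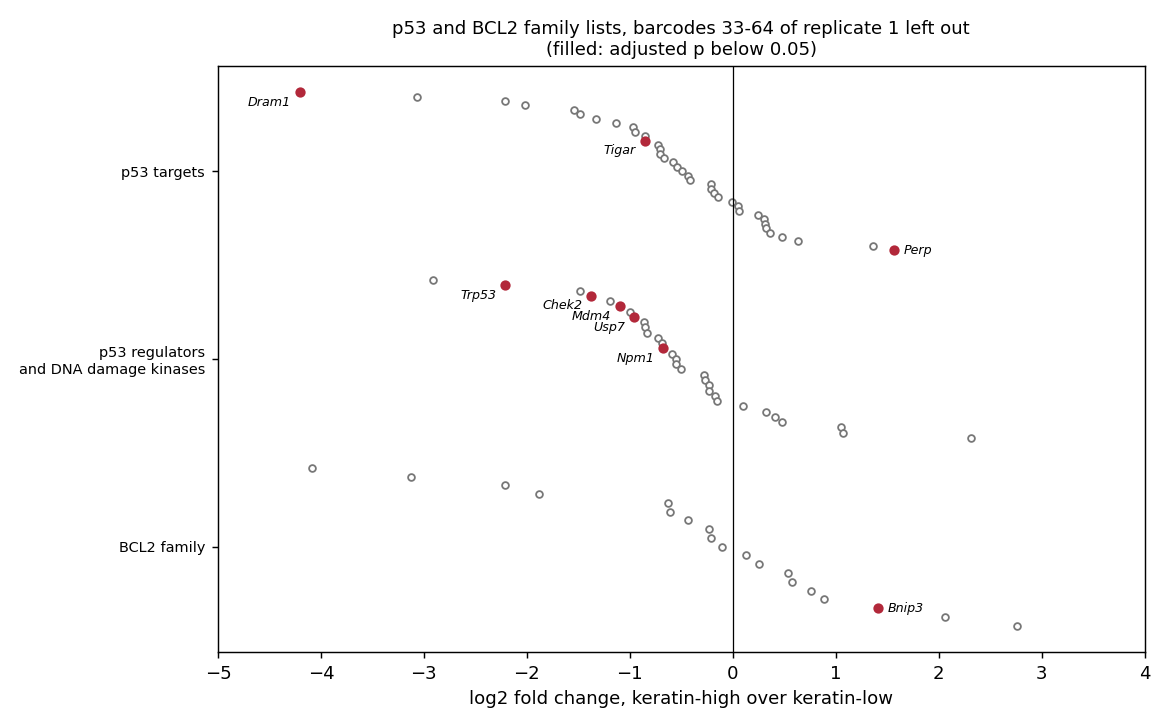
Log2 fold change, keratin-high over keratin-low cells, of each tested gene of 3 lists (p53 targets, p53 regulators with DNA damage kinases, and the BCL2 family), without barcodes 33 to 64 of replicate 1 (each point 1 gene, ordered by value within its list). Filled points passed the threshold: 2 genes, Perp and Bnip3, to the right of 0 and 7 genes to the left.

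Across the cells of a library, the members with the highest mean correlation of CPM with Trp53 were Ccng1 and Cdkn1a. These Spearman correlations of CPM describe cells that share a library and differ in depth, and carry no test. For Cdkn1a they were 0.35, 0.38 and 0.31 and for Ccng1 0.43, 0.27 and 0.36 in replicates 1, 2 and 3 (n = 83, 64 and 78 cells). The median over all genes with a count in 50% or more of the cells of every library was 0.16, 0.11 and 0.18. By the mean over libraries Ccng1 ranked 226 and Cdkn1a 283 among 5898 genes over all cells, and Ccng1 283 and Cdkn1a 99 without the 29 cells, so their order turned. Bax had 0.42, 0.21 and 0.19, Mdm2 0.05, 0.10 and 0.29, and Mcl1 0.22, 0.12 and 0.16. Perp, at -0.03, -0.23 and 0.02, and Bcl2l1, at 0.01, 0.11 and -0.15, were below the median gene in each library.

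Depth and the keratin order moved with these values. Trp53 itself correlated with total counts at 0.12, 0.37 and 0.43. In cells thinned to 20000 counts the correlations with Trp53 were 0.24, 0.22 and 0.21 for Cdkn1a and 0.28, 0.13 and 0.13 for Ccng1, beside a median over all ranked genes of 0.0734, 0.0313 and 0.0598. Mcl1, at 0.0875, 0.30 and 0.15, then had a mean of 0.18, as did Ccng1. Thinned correlations were computed with the 29 cells included. Within keratin-low cells Cdkn1a gave 0.38, 0.15 and 0.17, and within keratin-high cells 0.22, 0.26 and -0.13 (n = 21 to 27 cells). The median gene in the keratin-low cells had 0.32, 0.16 and 0.26, so Cdkn1a was below it in replicates 2 and 3. In the keratin-high cells the median was 0.13, 0.05 and 0.22, and Cdkn1a was below it in replicate 3. Replicate 1 without the 29 cells gave 0.23 within keratin-low and 0.33 within keratin-high cells (n = 18 each), beside medians of 0.01 and 0.17. The relation of Cdkn1a to Trp53 was weak and uneven within the groups. Ccng1 gave 0.69, -0.11 and 0.15 within keratin-low cells, below the median gene in replicates 2 and 3. Within keratin-high cells Ccng1 gave 0.15, 0.34 and 0.14, below the median gene in replicate 3. In replicate 1 without the 29 cells Ccng1 had 0.28 within keratin-low and -0.11 within keratin-high cells. Without the 29 cells replicate 1 gave 0.43 for Cdkn1a, 0.31 for Ccng1, -0.24 for Mdm2 and -0.40 for Perp (n = 54). Mdm2, the feedback gene, thus went from a positive to a negative value in replicate 1 and had no common sign over the libraries. By CPM of unthinned cells the strongest pair among members was Cdkn1a with Ccng1, at 0.50, 0.33 and 0.47, or 0.49 in replicate 1 without the 29 cells. In cells thinned to 20000 counts this pair had 0.50, 0.03 and 0.35. The pair with the highest mean was then Ccng1 with Perp, at 0.46, 0.24 and 0.39.

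**Figure D5:**
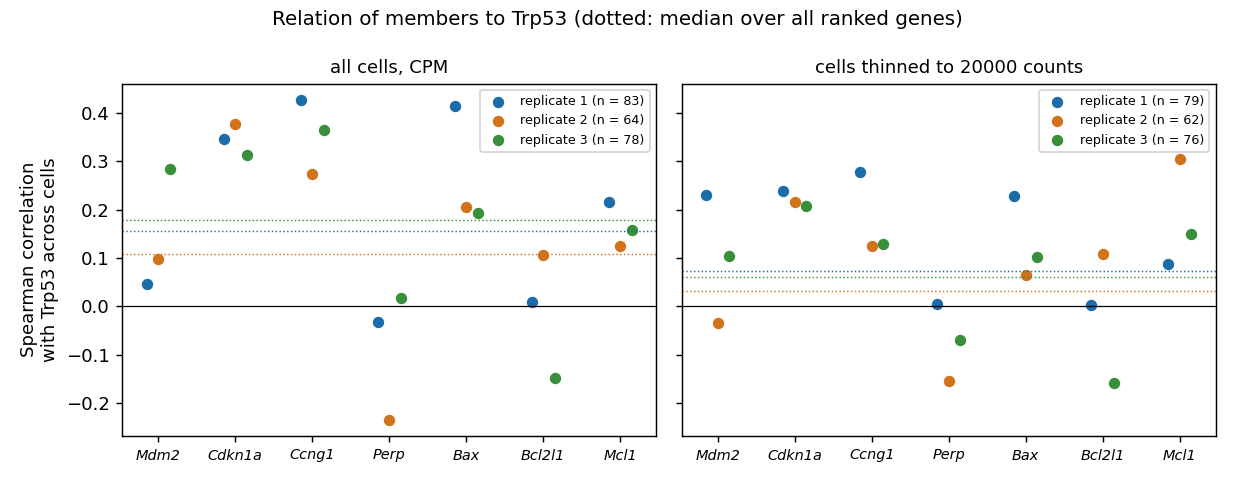
Spearman correlation of 7 members with Trp53 across the cells of each library, from CPM of all cells (left; n = 83, 64 and 78) and from cells thinned to 20000 counts (right); dotted lines are the median over all ranked genes. Cdkn1a and Ccng1 lie above the dotted line of their library in all 3 libraries in both panels.

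The 5 genes whose pattern across cells was most like that of Trp53, by the mean Spearman correlation over the 3 libraries among 5899 genes, were Spic (0.55, smallest 0.52), Ppm1a (0.55, smallest 0.48), Gnpnat1 (0.54, smallest 0.52), Pmm1 (0.54, smallest 0.53) and Stip1 (0.52, smallest 0.44). Spic encodes a transcription factor that was on the list of inner cell mass markers. When the 29 cells were left out Hdac1 took the place of Stip1, with a mean of 0.52. None of the members was among the 5.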

How the data were processed

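The authors deposited raw counts, 1 whole number for each gene in each barcode. CASAVA 1.8, HISAT2 and HTSeq with the build mm10 are named in the submitters' processing notes. Not given in the sources used here are versions of the last 2 tools, the annotation, strand and whether molecular identifiers were used, so a count may be a molecule or a read. Per the labels' protocols, cDNA came from an optimized Smart-seq2 protocol that captures 3′ ends, and cells were picked by hand; no doublet caller was run. Library totals were 30573711, 27610866 and 54444536 counts, with medians of 286484, 345414 and 608734 per cell and a range from 7098 to 2705412. No cells had identical counts, and 46 barcode numbers occurred as cells in all 3 libraries.

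Members and lists were chosen with earlier results of these data known. Counts were summed per library over keratin-high and keratin-low cells and tested with edgeR 4.0.16 (R 4.3.3; filterByExpr, TMM, glmQLFit, glmQLFTest), with the library as a block because both kinds of cell come from the same libraries. Benjamini-Hochberg adjustment ran over all genes tested, with a threshold of 0.05, and the SE is the log2 fold change over the root of F. Krt8 and Krt18 were left out of counts of genes. The keratin groups were drawn on the tested cells, so p-values do not include that uncertainty. Log2 ratios within barcode sets used CPM + 0.1. DESeq2 1.42.0 and limma 3.58.1 served as alternatives. The script was tested on simulated data. All 9 members were named; of each list up to 6 genes per direction that passed, with mean log2 CPM of at least 3 and 1 direction in all libraries, or the 2 most abundant where none passed; and the 5 genes most correlated with Trp53. One result of the caspase list is not reported here.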

Additional observations from a re-analysis of the deposited data

Results flagged for a closer look

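Barcodes with fewer than 2000 genes were left out as cells, yet 14 counts of members in them were above the 3 counts that a count of 0 allows. There were 13, 32 and 18 such barcodes in replicates 1, 2 and 3, holding 47251, 92365 and 180100 counts. Trp53 had 44 counts in replicate 2 and 5 in replicate 3, Mdm2 4 in replicate 1 and 24 in replicate 2, Cdkn1a 17 in replicate 1 and 9 in replicate 2, and Ccng1 6 in replicate 1. Perp had 6, 4 and 29 counts in replicates 1, 2 and 3, Bax 6 in replicate 2 and 66 in replicate 3, Bcl2l1 7 in replicate 3 and Mcl1 33 in replicate 3. Bak1 had none.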

How the results depend on the processing

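Members were refitted under 21 alternatives, 5 of them chosen after seeing the data. Trp53 was lower in keratin-high cells in 21 of 21 (log2 fold change from -2.29 to -0.97) and passed in 7, and Perp was higher in 21 of 21 (1.18 to 2.42) and passed in 8. Cdkn1a and Ccng1 kept their sign in 19 each and passed in 2 each. Mdm2 kept its sign in 20, Bcl2l1 in 19, Mcl1 in 21 and Bax in 14, and none of these 4 passed in any. Trp53 passed at -1.77 (2 members, 3 list genes) when cells above 2.5 times the median total were left out, at -2.12 (2 members, 9 list genes) without barcodes 33 to 64 of each library, and at -2.21 (2 members, 10 list genes) without those of replicate 1 alone. Leaving out 1 library in turn gave -2.22 to -0.97, with 0 to 2 members and 0 to 6 list genes passing. With barcodes 33 to 64 of replicate 1 also left out, it gave -2.29 and -2.14, with 2 and 4 members and 3 and 12 list genes. DESeq2 called 1 member and 10 list genes over all cells. Without those barcodes it called 4 members and 23 list genes, with Trp53 at -2.24. Library totals as the only scaling, and no filter on low counts, each called 1 list gene.

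The number of genes called over all 12154 was 19 (17 higher, 2 lower). It was 2 (2 higher, 0 lower) with DESeq2 size factors in edgeR, 65 (54 and 11) with library totals only, 883 with DESeq2, 165 without the filter, 90 with cells divided at the median, 110 with the cut of largest between-group variance, 225 without the cells of highest totals, 66 with thinned cells and 79 with limma. It was 0 with smaller outer groups (the upper and lower quartile), 0 with 5000 or more genes per barcode and 0 with no replicate block, where 1281, 1240 and 1261 genes had an unadjusted edgeR p below 0.05. It was 645 without barcodes 33 to 64 of each library and 649 without those of replicate 1. In that last case it was 6 with no replicate block, 1587 with DESeq2 and 225 or 808 without replicate 3 or 2. Leaving out 1 library over all cells gave 17 to 406. The cause of these shifts was not tested. 

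Directions turned in these cases, none past the threshold: Cdkn1a 0.0796 and Ccng1 0.22 with cells divided at the median; Cdkn1a 0.0570 with the cut of largest variance; Mdm2 -0.15 and Bcl2l1 -0.23 with thinned cells; and Ccng1 0.47 and Bcl2l1 -0.0603 without replicate 3. Leaving out 1 library gave Ccng1 -0.89 to 0.47, Bcl2l1 -0.0603 to 0.66 and Bax -0.00705 (without replicate 1) to 0.51. Bax was -0.24 without barcodes 33 to 64 of each library. Without those barcodes of replicate 1 Bax was -0.21, then -0.39 with no replicate block, -0.24 with DESeq2, and -0.42 and -0.21 without replicate 2 or 3. The median member's mean correlation with Trp53, 0.17, was 0.0702 in barcodes with 5000 or more genes and 0.24 in keratin-low cells. Of the members, Bak1 alone was at the limit that depth sets.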
